A study of Mus musculus with 34 samples.

Results

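The regions described here are binding sites of RelA (p65), a DNA-binding subunit of NF-κB, that were listed in CTCF-deficient dendritic cells after LPS and at which no p65 peak was listed in CTCF-expressing cells, with or without LPS. They were chosen by rule from 3 peak lists: a p65 peak of KOLPS was a member (called a KO-only site below) if it shared no base with a p65 peak of WTLPS or of WT. Of 1752 KOLPS p65 peaks, 486 were KO-only sites (27.7%), 1262 were overlapped by a WTLPS p65 peak (called shared peaks below), and 4 were overlapped by a WT p65 peak alone. The p65 values of these 3 lists chose the sites and are given as a description only.

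The cells were bone marrow-derived dendritic cells (BMDCs) of C57BL/6 mice, labelled 8 weeks old, cultured with GM-CSF for 6 days. Every culture carried CreER, a Cre recombinase that tamoxifen activates in any cell, and received 4-OH tamoxifen on the first day. Control cells had the genotype CreER and knockout cells CreER;CTCF fl/fl, whose loxP-flanked Ctcf alleles are removed. WT and KO are the unstimulated conditions, and WTLPS and KOLPS are the same cells after 3 hours with 100 ng/ml of LPS, a bacterial ligand of TLR4. Peak lists of ChIP-seq were available for 30 of the 34 samples, and the other 4 were inputs. STAT5 was profiled only without LPS, after 15 minutes of renewed GM-CSF. There was 1 list for each antibody and condition, so no difference between conditions could be set against replicate error, and no p-value is given. Parentheses after a share hold its 95% Wilson interval, which covers counting error only, and neighbouring sites are not independent draws.

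NF-κB dimers that contain p65 are held in the cytoplasm by IκB proteins. TLR4 signalling leads to degradation of IκB, and the dimers then bind κB motifs in promoters and enhancers of genes such as cytokines and of the pathway's own inhibitors. CTCF binds its own motif and halts loop extrusion by cohesin, the ring complex of which SMC1 is a subunit. H3K4me3 is the histone mark of active promoters, H3K27ac marks active promoters and enhancers, and H3K4me1 marks enhancers. The study asked how chromatin folding and CTCF control gene expression when these cells are activated. Binding of p65 with and without CTCF was a part of it.

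The labelled cell type was checked by H3K4me3 at marker genes. H3K4me3 peaks lay at the promoters of 9 of 10 dendritic cell markers in each of the 4 conditions, H2-Ab1 being the exception in WT, and at none of 9 markers of T, B and NK cells in any condition. In WT they lay at 7 of 8 macrophage and monocyte markers, 3 of 9 neutrophil markers and 1 of 5 mast cell and basophil markers.

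The sequence around 7 summits, 50 bases to either side on the plus strand of GRCm38 (mm10), shows the kinds of site that the rule brought together. Windows that touched an annotated exon were not used. The promoter of Cdk4, a kinase of the cell cycle, held a strong KO-only site (chr10:127063375-127063475), with a p65 fold of 17.6. Kcnn4, a calcium-activated potassium channel, stands for promoters with an AP-1 motif (chr7:24369945-24370045). Lin54, a DNA-binding part of a cell cycle complex (chr5:100500777-100500877), and St3gal3, a sialyltransferase with its site in an intron (chr4:118062156-118062256), hold the κB motif. Itpkb, an inositol phosphate kinase, is a strong intronic site without any motif of interest (chr1:180403806-180403906). The windows at Ighv8-11 (chr12:115569846-115569946) and Ighv1-67 (chr12:115606470-115606570) belong to the immunoglobulin heavy chain locus. Capitals mark matches of the κB motif, the AP-1 motif (TGANTCA), the E-box (CACGTG) and the ETS core (CCGGAAG).
Cdk4: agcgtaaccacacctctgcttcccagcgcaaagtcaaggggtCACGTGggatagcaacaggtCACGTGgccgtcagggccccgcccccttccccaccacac
Kcnn4: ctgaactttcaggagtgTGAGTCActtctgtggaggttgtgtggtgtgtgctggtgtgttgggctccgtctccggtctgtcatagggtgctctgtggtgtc
Lin54: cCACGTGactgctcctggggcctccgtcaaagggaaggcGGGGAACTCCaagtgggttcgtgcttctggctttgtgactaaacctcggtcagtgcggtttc
St3gal3: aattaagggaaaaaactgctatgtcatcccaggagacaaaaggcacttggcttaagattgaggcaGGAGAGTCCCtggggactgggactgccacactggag
Itpkb: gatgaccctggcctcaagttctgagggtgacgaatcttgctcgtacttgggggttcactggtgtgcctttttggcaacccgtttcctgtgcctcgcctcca
Ighv8-11: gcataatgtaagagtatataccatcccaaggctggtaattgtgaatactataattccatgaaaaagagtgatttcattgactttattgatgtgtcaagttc
Ighv1-67: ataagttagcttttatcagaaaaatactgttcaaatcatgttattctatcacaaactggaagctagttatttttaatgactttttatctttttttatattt
The Cdk4 window holds 2 E-boxes. Neither of the immunoglobulin windows holds any of these motifs.

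The KO-only sites were mostly weak peaks. Their fold enrichment over background ranged from 4.40 to 22.6 with a median of 6.60, against a median of 8.81 for shared peaks, and their median −log10 q was 5.96 against 10.7. The number of fragments at the summit could be recovered from fold and p for 471 sites, those with a −log10 p under 25, and was 7 at the lowest with a median of 11. The WTLPS library had a background of 0.855 fragments per base and the KOLPS library 0.817, and the WTLPS list went down to a −log10 p of 4.35 where the KOLPS list ended at 5.39. Most KO-only sites were far from a p65 peak of control cells. The median gap to the nearest WT or WTLPS peak was 87826 bp, and 20 of the 486 sites had such a peak within 1 kb. The 3 sites with the smallest gap lay 1 bp (near Lrp12), 82 bp (near Ado) and 168 bp (at Gm43611) from a control peak. On the other side of the rule, the 3 overlapped KOLPS peaks with the shortest overlap, at Rasgef1b, Gas2l3 and AC154442.1, shared 6, 12 and 68 bp with a control peak.

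The sites fell into 2 unlike groups by position. Chromosome 12 held 82 of the 486 KO-only sites (16.9%) and 48 of the 1262 shared peaks (3.80%). The plot by chromosome shows that the excess came from the immunoglobulin heavy chain locus Igh, where B cells assemble antibody genes and which is not rearranged in the myeloid lineage. The interval of all annotated Igh genes (chromosome 12, 113254830 to 116010093, 2755 kb, 233 genes and pseudogenes) held 64 KO-only sites and no shared peak. Of these, 62 lay between 115064802 and 115850692 among the distal V genes, with a median gap of 2522 bp between neighbours. A further 2 sites, at Ighv1-86 and Zfp386, lay within 100 kb past the interval and are counted with the sites outside. V genes are many near-identical copies, so reads there can be split or misplaced between copies, and values at single V genes are uncertain. The 64 sites also share 1 locus and are not separate observations of p65. The results below are given for the Igh sites and for the 422 others apart, a split chosen after the data were seen.

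**Figure D1:**
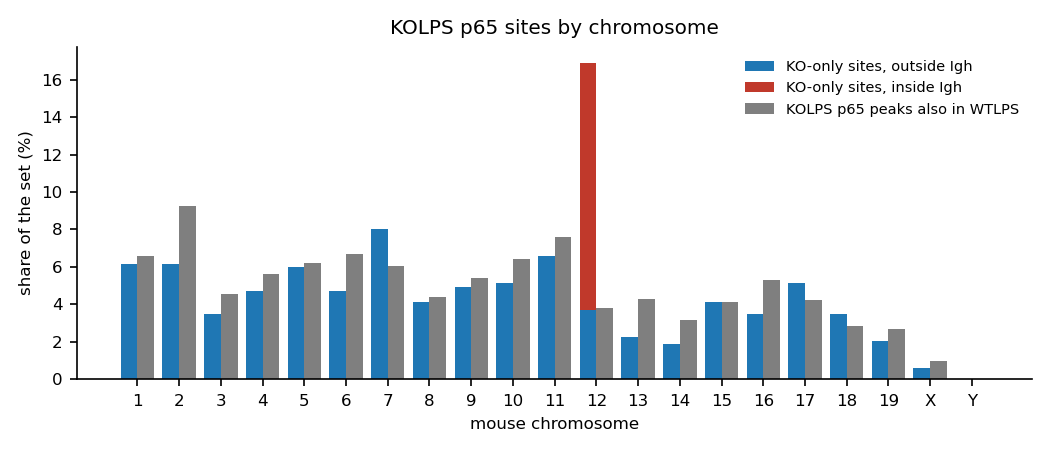
Share of the 486 KO-only sites (blue outside Igh, red inside) and of the 1262 shared KOLPS p65 peaks (grey) on each mouse chromosome, in percent of each set. Chromosome 12 holds 16.9% of the KO-only sites, most of them inside Igh, and 3.80% of the shared peaks.

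Inside Igh, peaks lay at more of the p65 sites in the knockout lists than in the control lists for each antibody other than p65. The rule left no p65 peak of WT or WTLPS at these sites. H3K4me1 peaks were the most frequent in control cells, at 21 of 64 sites in WT (32.8%) and 27 in WTLPS (42.2%), against all 64 in KO and in KOLPS. For comparison, the control lists held H3K4me1 at 75.8% of all KOLPS p65 peaks before LPS and 77.7% after it. The knockout lists held the mark at 75.5% and 62.3% of that set. CTCF peaks lay at all 64 sites in KO and in KOLPS (100%, 94.3 to 100 both), against 5.48% and 5.02% of all KOLPS p65 peaks. In WT and WTLPS, CTCF peaks lay at 15.6% (8.71 to 26.4) and 10.9% (5.40 to 20.9) of the same sites, beside 9.13% and 7.19% of all KOLPS p65 peaks. SMC1 peaks lay at 63 of 64 sites in KOLPS (98.4%) and 3 of 64 in WTLPS (4.69%), against 89.7% and 87.0% of all KOLPS p65 peaks. H3K27ac peaks lay at 36 sites in KOLPS and none in WTLPS, against 77.6% and 75.5%, and H3K4me3 peaks at 26 in KOLPS and none in WTLPS, against 29.6% and 32.2%. H3K27me3, the mark of Polycomb repression that seldom shares a site with H3K27ac, was listed at 57 of the 64 sites in KO, against 3.42% of all KOLPS p65 peaks, at 58 in KOLPS and at none in WT or WTLPS. STAT5 peaks lay at 54 sites in KO, against 30.1% of all KOLPS p65 peaks, and at none in WT. p65 itself, before LPS, was listed at 28 of the 64 sites in KO (43.8%, 32.3 to 55.9), against 22.9% of all KOLPS p65 peaks. Of the 64 sites, 44 had a peak in 10 or more of the 14 other knockout lists, which no KO-only site outside Igh had. The median number of such lists was 11 at the Igh sites and 6 over all KOLPS p65 peaks. Shared peaks, none of which lay in Igh, reached 12. No peak in the 15 control lists was found at 32 of the 64, where the p65 lists could hold none by the rule.

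Seen over the whole interval, the knockout lists held more peaks in Igh for each of the 8 antibodies. For CTCF the control lists held 162 and 141, without and with LPS, and the knockout lists 250 and 254. The length that the CTCF peaks covered was not larger, at 180 and 164 kb in control and 173 and 153 kb in knockout cells. The control p65 lists held 0 peaks there without LPS and 1 with LPS, and the knockout lists 53 and 64, so that 10.5% of the 504 KO p65 peaks lay in Igh. The 64 KOLPS peaks are the KO-only sites themselves, so the p65 counts of WT, WTLPS and KOLPS are a description only. The STAT5 lists held 5 in WT and 188 in KO. For SMC1 the 2 control lists had 89 and 80 peaks there, without and with LPS, and the knockout lists 283 and 276, although the KOLPS list as a whole was shorter (17241 peaks against 57354 in WTLPS). The H3K4me1 peaks over the Igh sites ranked at the top of their own lists, at a median of the 100.0th percentile in both KO and KOLPS. The H3K4me1 peaks over 21 sites in WT and 27 in WTLPS ranked high too, at the 88.1th and 88.0th percentile. In these medians a peak that spans several sites counts once for each site. The H3K4me3 peaks there were weak, at the 30.3th percentile in KOLPS. Among the strongest Igh sites, Ighv8-11 had a p65 fold of 11.6 in KOLPS and 8.29 in KO, Ighv1-67 had 10.5 and 7.04, and Ighv1-69 had 10.5 and 9.97. Genotype and any other difference between the 2 sets of cultures, such as the alleles, the copy number or the mappability of this locus, cannot be told apart in these lists. The stated peak-calling command names no input control, the inputs have no peak list, and the part of such differences in the p65 peaks was not tested.

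**Figure D2:**
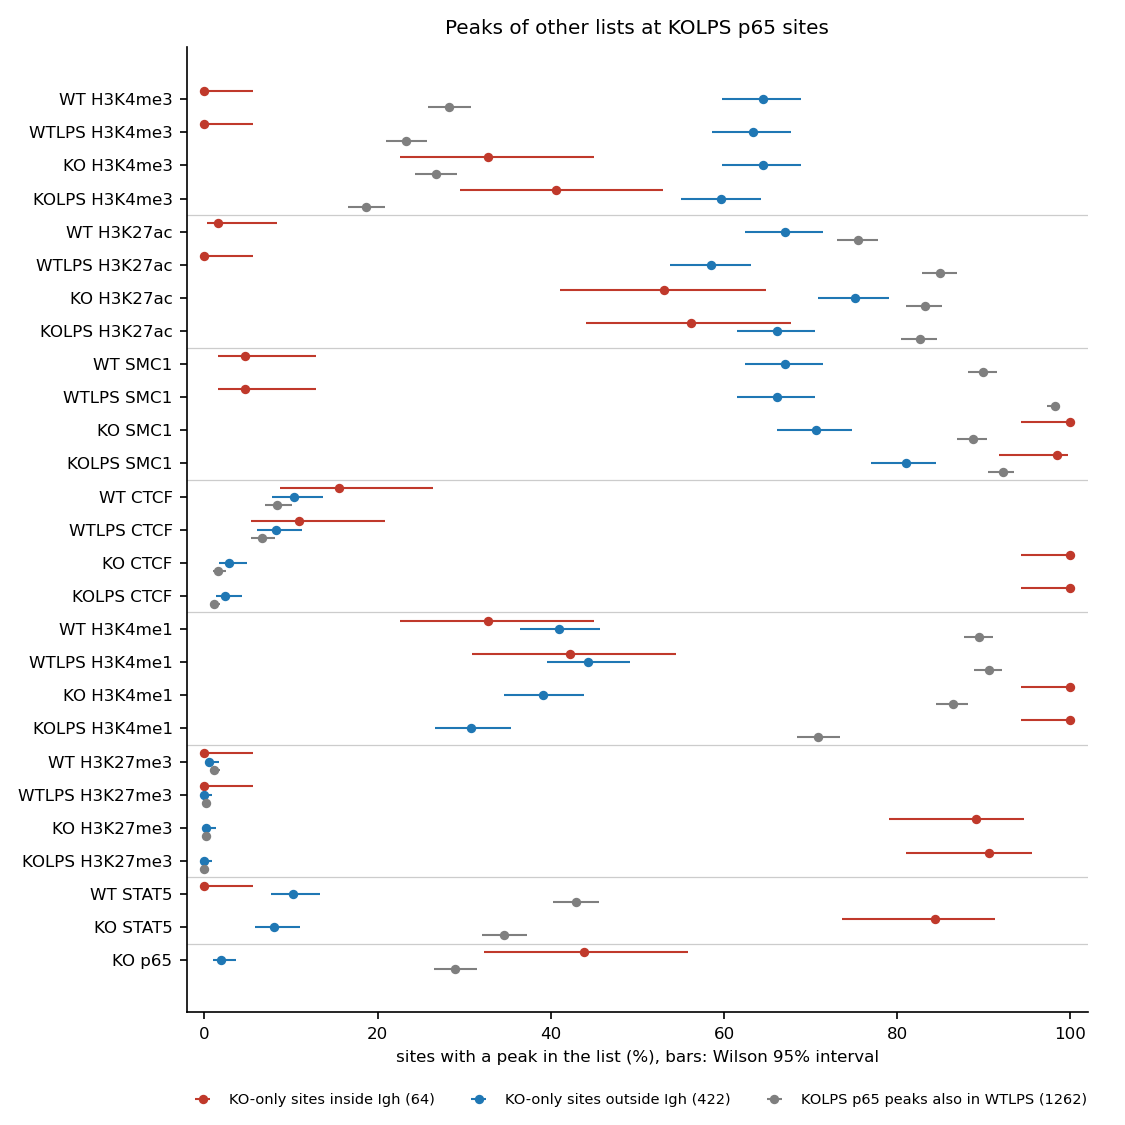
Share of sites with a peak in each of the other lists, in percent with Wilson 95% intervals, for the 64 KO-only sites inside Igh (red), the 422 elsewhere (blue) and the 1262 shared peaks (grey). The red points lie near 0 in most WT and WTLPS lists and are high in the KO and KOLPS lists, while the blue SMC1 points are at 66.1% in WTLPS and 81.0% in KOLPS.

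Outside Igh, KO-only sites lay at promoters much more often than shared peaks. Promoters were taken as 2.5 kb on each side of a gene start. Of the 422 sites, 239 lay at a promoter (56.6%, 51.9 to 61.3), against 22.2% of shared peaks (20 to 24.6), a difference of 34.4 points (29.1 to 39.6). The share over all KOLPS p65 peaks was 31.8%. The shared peaks at or below the median −log10 q of the KO-only sites, 346 in number, had a share of 19.7%. Introns held 89 of the 422 sites, exons 15, and the space outside genes 79. The summits gathered just before starts: 168 of 422 (39.8%) lay within 500 bases of a protein-coding start, 128 of them on the upstream side, with a median position of −108. Of shared peaks, 6.58% lay that close.

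**Figure D3:**
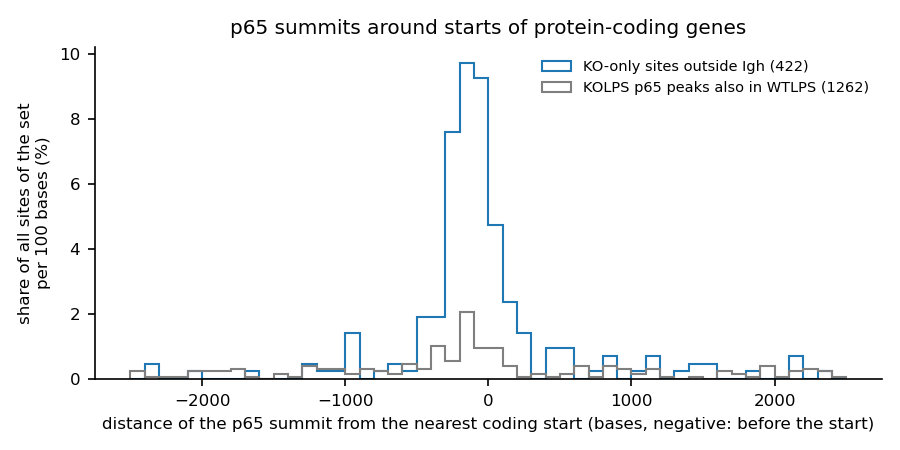
Distance of p65 summits from the nearest protein-coding start, in bases (negative before the start), as percent of all sites of a set per 100 bases, for the 422 KO-only sites outside Igh (blue) and the 1262 shared peaks (grey). The KO-only sites peak just before the start, with a median of −108 among those within 500 bases.

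In all, 242 protein-coding genes had a KO-only site in the promoter. Of these genes, 17 also had a WTLPS p65 peak elsewhere in the promoter. Nearly all had active promoters: 240 of 242 (99.2%) carried an H3K4me3 peak in WTLPS and 239 (98.8%) in KOLPS, against 58.5% and 57.7% of all 21951 protein-coding genes.

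The strongest promoter sites belonged to genes with many roles. Tgfb1, which encodes the cytokine TGF-β1, had a p65 fold of 14.9 in KOLPS with a summit 2363 bases past the start. Crlf2, a subunit of the TSLP receptor, had a fold of 14.3, and so had Colgalt1, a collagen galactosyltransferase, with a summit 7 bases before the start. Ascc3 (an RNA helicase), Per1 (a repressor of the circadian clock), Naa35 (a subunit of an N-terminal acetyltransferase) and Ssbp4 each had a fold of 13.2. Klf10, a transcription factor induced by TGF-β, held 2 sites, with folds of 12.7 and 11.6, 1527 bases past and 146 bases before its start. The plasma membrane calcium pump gene Atp2b1 followed with 12.1, Arhgap12 (a GTPase-activating protein) with 11.6 and Map3k8, the kinase TPL2 that acts downstream of TLR4, with 11.0. Ifi30, a lysosomal thiol reductase used in antigen processing, had a fold of 14.9 in its promoter, but is not among the genes annotated as protein-coding in GENCODE vM21. Away from promoters, the strongest sites lay in introns of Raet1e (16.0), a ligand of the receptor NKG2D with near-identical paralogs beside it, and of Itpkb (15.4).

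Promoters of genes in fixed lists were searched for KO-only sites. By the rule, a p65 peak of control cells removed any KOLPS peak that overlapped it. Low counts in lists with many WTLPS peaks can therefore be set in part by the rule. Of 25 genes for NF-κB subunits, kinases and feedback inhibitors, none had a KO-only site at the promoter, while 10 had some KOLPS p65 peak there and 15 a WTLPS peak. The same count was 0 of 23 for chemokines and their receptors (5 with a KOLPS peak and 11 with a WTLPS peak), 0 of 25 for TLR receptors and adaptors (3 and 7), 0 of 32 for interferon-stimulated genes (1 and 5), and 0 of 16 for LPS-induced enzymes and effectors (2 and 8). It was 0 of 11 for cohesin and CTCF related genes and 0 of 67 for histone genes. Cytokines had 2 of 22, which were Csf1 (fold 6.05) and Tnf (5.50), the latter 1129 bp from a control peak. AP-1 and immediate early genes had 3 of 30, Maff (8.81), Jund (6.60) and Btg1 (4.95), and heat shock genes 2 of 17, Hspd1 and Hspe1, which share a bidirectional promoter (8.81). Nr4a3, a nuclear receptor, was the single gene of 20 myeloid and dendritic cell transcription factors (7.15), Tapbp, which loads MHC class I, that of 19 costimulation and antigen presentation genes (8.26), and Rps19 that of 83 ribosomal protein genes (6.60). Over all 21951 protein-coding genes the counts were 242 with a KO-only site, 428 with any KOLPS p65 peak and 627 with a WTLPS p65 peak. The counts in single lists are too small to set a list apart.

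H3K4me3 at the sites outside Igh was listed at similar shares with and without CTCF. A peak lay at 63.3% of the 422 sites in WTLPS (58.6 to 67.7) and at 59.7% in KOLPS (55.0 to 64.3), beside 64.5% in both WT and KO. Over all KOLPS p65 peaks the shares were 32.2% in WTLPS and 29.6% in KOLPS, and over shared peaks 23.3% and 18.7%. No site gained an H3K4me3 peak in KOLPS, and 15 had one in WTLPS only, a difference of −3.55 points (−5.32 to −1.79). Of the 15, 12 lay away from promoters, and the 3 strongest lay near Hsp90aa1, in an intron of Igf2bp2 and in Gm20431, with WTLPS folds of 8.82, 6.50 and 3.21. At promoter sites the shares were 91.2% and 90.0%. With the Igh sites included, the difference turned to 2.26 points (−0.311 to 4.84), since all 26 sites that had the mark in KOLPS only were Igh sites.

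Folds of H3K4me3 at 2 of the promoters named above were as follows. At Cdk4 the WT and WTLPS folds were 29.1 and 25.5, and the KO and KOLPS folds 30.9 and 18.3. At Map3k8 they were 47.1, 47.3, 54.5 and 35.3 in the same order. These folds have different scales, and the median fold of the H3K4me3 peaks over shared peaks was 17.4 in KOLPS and 26.9 in WTLPS. Ranked within their own list, the H3K4me3 peaks over KO-only sites outside Igh lay at a median of the 79.0th percentile in WTLPS and the 80.8th in KOLPS.

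H3K27ac was listed at somewhat more of the sites outside Igh in KOLPS, but the difference depended on how overlap was counted. The share was 58.5% in WTLPS (53.8 to 63.1) and 66.1% in KOLPS (61.5 to 70.5), against 75.5% and 77.6% over all KOLPS p65 peaks and 85.0% and 82.6% over shared peaks. At the same sites, 63 had the mark in KOLPS only and 31 in WTLPS only, a difference of 7.58 points (3.14 to 12), while shared peaks had a difference of −2.46 points (−4.42 to −0.490). At promoters outside Igh the difference was 5.44 points (−0.491 to 11.4), and away from them 10.4 points (3.69 to 17.1). All 486 sites together gave 14 points (9.57 to 18.4). Without LPS the shares were 67.1% in WT and 75.1% in KO, 8.06 points apart (4.42 to 11.7), and shared peaks differed by 7.69 points (5.53 to 9.85) and all KOLPS p65 peaks by 9.30 (7.41 to 11.2). H3K27ac peaks are long and broken, and when a single peak had to cover 50% of the site the difference outside Igh was 3.79 points (−1.07 to 8.65), with 63 sites in KOLPS only and 47 in WTLPS only, a setting chosen after the data were seen.

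Examples of each kind follow. Itpkb had H3K27ac peaks in WT (11.0), KO (10.9) and KOLPS (7.77) and none in WTLPS, and Kcnn4 likewise in WT (11.7), KO (15.0) and KOLPS (16.5). So at Itpkb and Kcnn4 the list without a peak was WTLPS alone. The reverse, a peak in WTLPS and none in KOLPS, held at a site near Tspyl3 (WTLPS fold 5.46), at Nhp2 (5.92) and in an intron of Sbf2 (9.10). Ascc3 and Map3k8 carried the mark in all 4 conditions.

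Of H3K4me3, H3K27ac and SMC1, the last differed most between KOLPS and WTLPS outside Igh. SMC1 peaks lay at 66.1% of the 422 sites in WTLPS (61.5 to 70.5) and at 81.0% in KOLPS (77 to 84.5). The shares were 87.0% and 89.7% over all KOLPS p65 peaks. The WT and KO shares were 67.1% and 70.6%. At 84 sites SMC1 was listed in KOLPS only and at 21 in WTLPS only, a difference of 14.9 points (10.4 to 19.5), while shared peaks differed by −6.02 points (−7.52 to −4.52). The difference came from promoters: there the share was 53.6% in WTLPS and 79.9% in KOLPS, 26.4 points apart (20.1 to 32.6), with 69 sites listed in KOLPS only and 6 in WTLPS only. Away from promoters it was 82.5% in both, with 15 sites in each direction.

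Promoters at large differed in the other direction. Of 12126 coding promoters with an H3K4me3 peak in WTLPS or KOLPS, 18.0% carried SMC1 in WTLPS and 14.3% in KOLPS, a difference of −3.67 points (−4.38 to −2.96), measured in windows of 249 bases centred 100 bases before the start. The 218 KO-only promoter sites with H3K4me3 differed by 29.8 points (23.5 to 36.1), from 50% to 79.8%. The 167 shared promoter peaks with H3K4me3 were near saturation at 95.8% and 94.6%. The KOLPS SMC1 list was the shorter of the 2 and its library had the lower coverage (4.50 against 5.76 fragments per base), and with the WTLPS library thinned to that coverage the difference outside Igh was 20.2 points, at 60.9% and 81.0%.

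At Cdk4 SMC1 had a fold of 4.06 in WT, no peak in WTLPS, 5.84 in KO and 8.19 in KOLPS. At Ascc3 a peak was listed in KOLPS alone (6.37), and likewise at the site near Ccne1 (5.46), a cyclin gene. The reverse, SMC1 in WTLPS only, held at Shank1 (WTLPS fold 6.93) and at sites near Fam129b (5.77) and Mturn (4.29). Since p65 and SMC1 in KOLPS were profiled in cells of the same condition and the sites were chosen for a p65 peak in KOLPS, a property of the KOLPS cultures or libraries that both share cannot be told apart from the genotype.

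**Figure D4:**
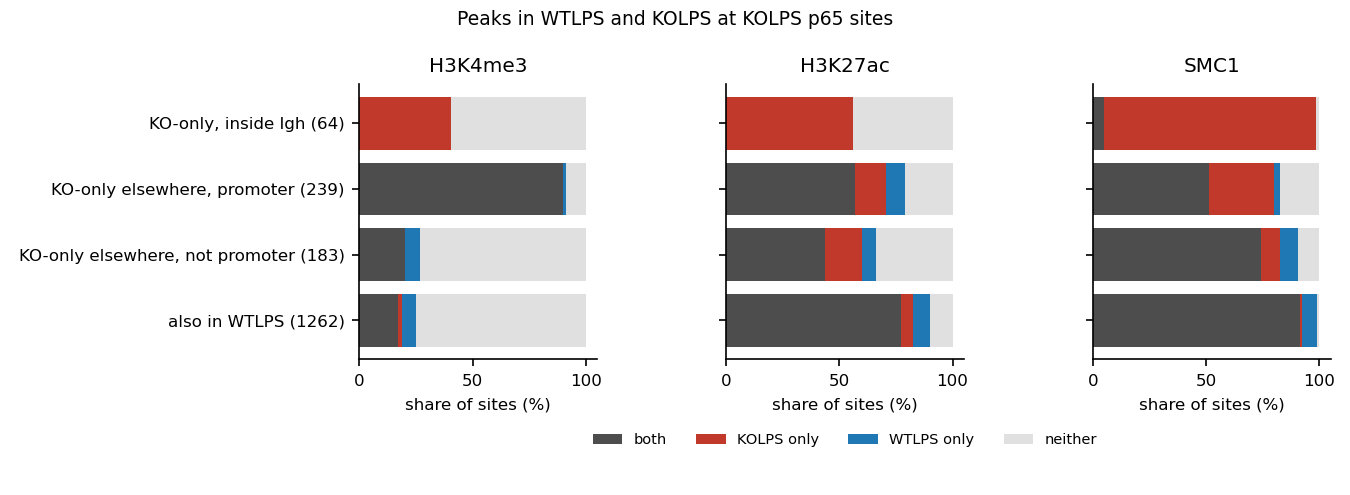
Share of sites (percent of each set, number in parentheses) with a peak in both WTLPS and KOLPS, in KOLPS only, in WTLPS only or in neither, for H3K4me3, H3K27ac and SMC1. At promoter sites outside Igh the red segment for SMC1 holds 69 of 239 sites and the blue 6, while for H3K4me3 nearly all sites carry the mark in both.

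Combined, 146 of the 422 sites outside Igh (34.6%) carried H3K4me3, H3K27ac and SMC1 in KOLPS, and 100 (23.7%) did in WTLPS, while of shared peaks 209 (16.6%) did in KOLPS and 272 (21.6%) in WTLPS. The number with none of the 3 was 18 in KOLPS (4.27%) and 17 in WTLPS (4.03%), against 3.01% and 0.951% of shared peaks. There were 8 sites with no peak in any of the 15 control lists and 6 with no peak in any other list. So 414 sites outside Igh had a peak of some antibody in control cells, which by the rule was never p65. Every shared peak had a WTLPS p65 peak by definition, so the shared peaks give no like share for these counts.

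Before LPS, p65 was hardly listed at the sites outside Igh in knockout cells. KO p65 peaks lay at 8 of 422 sites (1.90%, 0.964 to 3.70), against 28.9% of shared peaks (26.5 to 31.5) and 22.9% of all KOLPS p65 peaks. The weak shared peaks had 7.80%, a difference of −5.91 points (−9.35 to −2.92) from the KO-only sites. The rule removed sites with a WT p65 peak from the KO-only sites alone. Such a peak lay at 38.0% of shared peaks and 19.9% of the weak ones, so these differences are not independent of the rule. Among the 8 were Tgfb1, Per1, Zfand2a, Ccnd3, Ube2d3, Rab11fip4 and Ctsd, with KO folds between 5.86 (Per1 and Zfand2a) and 9.97 (Tgfb1). Rab11fip4 and Ctsd are outside the rule for named sites and were named after their values were seen. Zfand2a is a heat- and arsenite-inducible zinc finger gene, Ccnd3 a cyclin, and Ube2d3 a ubiquitin-conjugating enzyme that takes part in IκB degradation. Over all 486 sites the share was 7.41% (5.40 to 10.1), of which 28 of 36 sites were in Igh. The KO p65 list holds 504 peaks from a library of coverage 0.705, so a weak site may have been missed at this depth.

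The κB motif was less frequent at the KO-only sites than at shared peaks. The κB motif lay within 50 bases of the summit at 28 of 422 sites (6.64%, 4.63 to 9.42), against 17.8% of shared peaks (15.8 to 20) and 15.6% of the weak shared peaks (12.2 to 19.8). Windows 1 kb to either side of the 422 sites held it in 2.96% (2.01 to 4.34), and all coding promoters, in windows of the same length centred 100 bases before the start, in 3.40%. Coding promoters with a KOLPS H3K4me3 peak held it in 4.06%. By place, the motif lay in 8.37% of promoter sites and 4.37% of the others, against 4.18% and 1.37% of windows 1 kb away. None of the 64 Igh sites held it (0%, up to 5.66). Among the 50 strongest sites outside Igh the share was 10% (4.35 to 21.4). With 1 mismatch allowed it was 37.4% of the 422 sites and 46.2% of shared peaks, and in the whole peak 15.9% and 35.9%.

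Other motifs were counted by place. At promoter sites the E-box, which MYC, MAX and USF factors bind, lay in 12.1% (8.58 to 16.9), against 3.64% of coding promoters with a KOLPS H3K4me3 peak (3.33 to 3.98) and 2.86% of shared promoter peaks. The ETS core lay in 10% (6.84 to 14.5), against 5.27% and 0.714%, and the GC box (GGGCGG) of Sp1 and KLF factors in 42.3% (36.2 to 48.6), against 36.3% and 12.5%. Away from promoters the AP-1 motif of Fos and Jun lay in 18.0% (13.1 to 24.2), against 3.01% of windows 1 kb away and 13% of the shared peaks away from promoters. At promoter sites it lay in 5.86% (3.52 to 9.59), against 1.47% of coding promoters with H3K4me3 and 8.57% of shared promoter peaks. The E-box lay in 4.92% of sites away from promoters (2.61 to 9.08), against 0.546% of windows 1 kb away and 1.73% of shared peaks there. The core of PU.1 (GAGGAAGT), the factor of myeloid enhancers, lay in 1.90% of the 422 sites and 4.68% of shared peaks. The cAMP response element CRE (TGACGTCA) was found at 8 sites outside Igh (1.90%, 0.964 to 3.70), against 0.317% of shared peaks, and the interferon response element core (GAAANNGAAA) at 8 as well, close to the 1.78% of the windows 1 kb away. The CCAAT box (CCAAT) lay in 15.1% of the promoter sites and the NRF1 core (CGCATGCG) in 1 of them, against 21.0% and 1.29% of the coding promoters with H3K4me3. Of all 21933 coding promoters, 2.77% held the E-box, 3.36% the ETS core, 24.9% the GC box, 2.41% the AP-1 motif, 0.948% the PU.1 core, 0.834% the CRE, 1.08% the interferon core, 20.5% the CCAAT box and 0.839% the NRF1 core. Both strands were searched and matches of different motifs may overlap. A match is a description of the letters, not of binding.

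Base composition was counted by place as well. Promoter sites outside Igh had a median G+C content of 63.4%, and 73.6% of them held 5 or more CpG dinucleotides in the window. The same share was 66.0% of coding promoters with H3K4me3 and 19.6% of shared promoter peaks. The Igh sites had a median G+C content of 34.2% and none held 5 CpG, beside a median of 38.1% in windows 1 kb beside them.

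**Figure D5:**
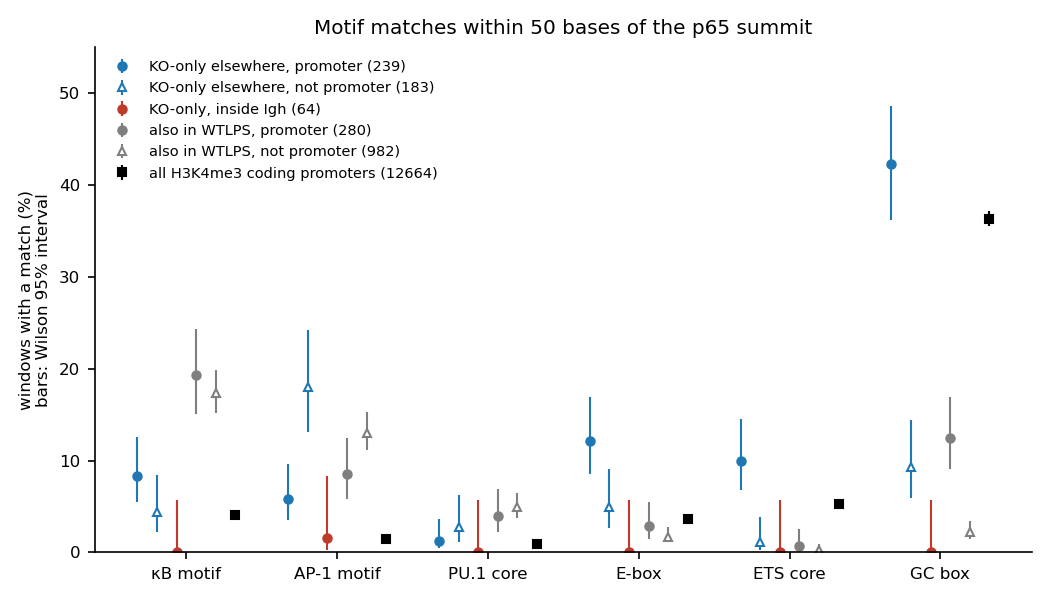
Share of windows of 50 bases to either side of the p65 summit with a match of each motif, in percent with Wilson 95% intervals, for KO-only sites (blue outside Igh, red inside), shared peaks (grey) and all coding promoters with a KOLPS H3K4me3 peak (black, windows centred 100 bases before the start). The κB motif is at 8.37% and 4.37% of the blue sets and at 19.3% and 17.4% of the grey sets, at promoters and elsewhere.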

How the data were processed

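ChIP-seq libraries were made by tagmentation of precipitated chromatin, with paired-end sequencing. Reads were trimmed, aligned to mm10 and freed of duplicates by the authors, who called peaks with MACS2 by a command that names no input control. The submitters' processing notes name BWA 0.7.12, Picard 1.77 and MACS2 2.1.2, and the methods name other versions. The study had 2 biological replicates per condition, but the labels do not say whether the single list of each condition is 1 replicate or a pool. Each deposited peak has a fold (a ratio of pileup over background), a p-value and a q-value as −log10, and a score, which was not used. By their names, the p65 lists were also cleared of blacklisted regions. The H3K27me3 and H3K4me1 lists give no summit, unlike the others. Folds of different lists are on different scales and are given side by side as values only.

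Peaks were overlapped at 1 bp or more. Fragments per base were recovered from fold and p, and are not read counts. Gene starts came from GENCODE vM21, and sequence from RefSeq GRCm38.p6. All 1393623 peaks of the 30 lists lay within its chromosomes. Intervals were Wilson's for shares, Newcombe's between sets, and from the sites that changed between conditions. Scripts (Python, pandas, scipy) were tested on simulated data. Sites named in the text were the 10 strongest, the 15 strongest at coding promoters, the 10 strongest with a KO p65 peak, sites at promoters of listed genes, the 3 strongest with each mark in KOLPS or WTLPS only, and the 3 nearest to the edge of the rule. Members and gene lists were chosen with earlier results of these data known. Alternatives were other overlaps, thresholds, promoter definitions, motif settings and a common coverage, and, added after seeing the data, leaving out Igh, alone or with another overlap or coverage. One site picked by the rule for named sites is not reported here.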

Additional observations from a re-analysis of the deposited data

How the results depend on the processing

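With 1 list per condition, no replicate could be left out, and No paired analysis was possible because the labels carry no replicate numbers. Under the alternatives chosen first, 46 recomputed values stayed within the interval of the reported value (within 1.5 times for the number of sites) and 15 moved. The values in this paragraph start from all 486 sites, Igh included. Over these, H3K27ac lay at 50.8% in WTLPS and 64.8% in KOLPS. SMC1 lay at 58.0% and 83.3%, a difference of 25.3 points. Keeping only KOLPS p65 peaks at or above the median −log10 q left 176 sites. H3K27ac then lay at 56.2% in WTLPS and 70.5% in KOLPS, and SMC1 at 74.4% and 90.9%, a difference of 16.5 points. Sites at a promoter were 46.5% with a half-width of 1 kb, 63.0% with the starts of all transcripts and 43.2% with protein-coding genes only. Where a single peak had to cover 50% of the site, H3K27ac lay at 37.7% in WTLPS and 44.2% in KOLPS, 6.58 points apart. With the WTLPS SMC1 library thinned, its share over the 486 sites was 53.5%. The κB motif was found at 33.5% of sites with 1 mismatch and at 13.8% over the whole peak.

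Leaving out the Igh interval, an alternative chosen after seeing the data, moved the WTLPS shares to 63.3% for H3K4me3, 58.5% for H3K27ac and 66.1% for SMC1, and the differences to −3.55, 7.58 and 14.9 points, so that the one in H3K4me3 changed sign. The share with a KO p65 peak became 1.90%. Leaving out a further 100 kb to either side gave 63.3%, 58.8% and 66.4%, differences of −3.57, 7.14 and 14.5 points, and 1.90%. With the Igh interval left out, the differences in H3K4me3, H3K27ac and SMC1 were −2.84, 3.79 and 14 points where a single peak had to cover 50% of the site, and −3.52, 8.65 and 20.2 points with the library of higher coverage thinned. The H3K27ac interval then included 0 in the first case. Leaving out Igh, with or without the further 100 kb, kept the shares of KOLPS lists, promoters and the κB motif within their intervals over all 486 sites. Where a single peak had to cover 50% of the site, the KOLPS shares outside Igh were 58.1% for H3K4me3, 47.2% for H3K27ac and 77.7% for SMC1. The last 2 of these lay below their intervals. The low number of fragments at most sites limits what the lists can show: a site of 7 to 11 fragments is close to the lowest that was called.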

Other observations

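Enhancer marks and STAT5 were less often listed at the KO-only sites outside Igh than at shared peaks. H3K4me1 lay at 44.3% of the 422 sites in WTLPS and 30.8% in KOLPS, against 90.6% and 70.9% of shared peaks. The difference was −13.5 points (−17.2 to −9.81) at the KO-only sites and −19.7 points (−22.0 to −17.5) at shared peaks. Away from promoters, where the mark belongs, the shares were 80.9% and 61.2%, against 96.2% and 77.4%. STAT5, the factor activated by GM-CSF, lay at 10.2% of the sites in WT and 8.06% in KO, against 42.9% and 34.6%. H3K27me3 lay at 2 sites in WT (0.474%) and 1 in KO (0.237%), against 1.11% and 0.158% of shared peaks.

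CTCF peaks of control cells were not frequent at these sites. They lay at 10.4% of the 422 sites in WT and 8.29% in WTLPS, against 8.40% and 6.66% of shared peaks, differences of 2.03 points (−1.03 to 5.60) and 1.64 points (−1.09 to 4.91). In KO and KOLPS a CTCF peak lay at 2.84% and 2.37% of the sites, against 1.58% and 1.11% of shared peaks. Both differences were 1.26 points (−0.220 to 3.39 in KO and −0.0492 to 3.25 in KOLPS).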
